A study of Homo sapiens with 21 samples.

Results

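The respiratory chain of the inner mitochondrial membrane was followed here through 44 transcripts of the 53515 genes counted in each library. They comprised all 13 mRNAs of the mitochondrial genome, 30 nuclear genes for subunits of complexes I to V, and PPARGC1A, which encodes the coactivator PGC-1α. The members were listed by gene symbol, and each matched 1 Ensembl identifier. RNA sequencing covered 7 parental cancer cell lines and 10 treatment-resistant cell lines derived from them by prolonged exposure to rising drug doses. HepG2 (liver) is the parent of HepG2S1 and HepG2S3, both resistant to sorafenib. The 5-fluorouracil-resistant PancB1Q and PancB1V come from PancVB (pancreas, Panc 03.27). HCC4006P1 (lung) was the parental cell line of the erlotinib-resistant HCC4006ER, HCC4006P2 (lung) that of the gefitinib-resistant HCC4006GR, and HCC827P (lung) that of the gefitinib-resistant HCC827GR. UWB1.289 (ovary) was the parental cell line of U10 and U100, which resist olaparib, and IGROV-1 (ovary) that of IGROV-1/CDDP, which resists cisplatin. No cells carried an engineered allele, and each resistant cell line is a single derivation, so that a difference between 2 cell lines cannot be told apart from drift of 1 culture. By the study's low-coverage genome sequencing, copy number differences from the parent were small, except in the 2 resistant cell lines derived from HepG2. Whether copy number has a part in the levels given here was not tested. Cell lines with the same parent share its libraries, and their comparisons are therefore not independent.

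Oxidative phosphorylation is built from 2 genomes. The mitochondrial genome encodes core subunits of complexes I, III, IV and V, and all other subunits, including the whole of complex II, are encoded in the nucleus and imported. Mitochondrial genes are transcribed as long polycistronic RNAs from which the single mRNAs are cut, whereas each nuclear subunit gene has a promoter of its own, many of which bind NRF1, the ETS factor GABPA or YY1. PGC-1α coactivates several of these factors and is known as a driver of mitochondrial biogenesis.

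The mitochondrial genes lie so close together that some share bases, which bears on how reads can be counted for them. On chromosome M of GRCh37, MT-ATP6 (8527 to 9207) starts inside MT-ATP8 (8366 to 8572), and MT-ND4 (10760 to 12137) starts inside MT-ND4L (10470 to 10766), on the same strand. The shared bases, 46 in the first pair and 7 in the second, are shown in capitals with 12 bases on either side, since HTSeq leaves out a read that falls on 2 genes. The mitochondrial sequence version behind the study's hg19 counts is not given in the sources used here.
MT-ATP8 and MT-ATP6, chrM:8515-8584, plus strand: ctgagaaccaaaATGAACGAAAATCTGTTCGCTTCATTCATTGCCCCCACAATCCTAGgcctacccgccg
MT-ND4L and MT-ND4, chrM:10748-10778, plus strand: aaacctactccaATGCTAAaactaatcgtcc
Both stretches begin at the start codon of the downstream gene and end at the stop codon of the upstream one. For MT-ATP8 the shared part is 22.2% of its 207 bases. MT-ND6 is the only mitochondrial member on the other strand of the circle, and because the strand setting of the counting is not given, its counts cannot be told apart from reads antisense to that strand.

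Promoters of the nuclear members were searched for the factors named above. RefSeq windows on GRCh38.p14, from 250 bases before to 50 bases after a gene's start, were matched by symbol for 24 of the 30 nuclear subunits (not for ATP5F1B, NDUFA4, SDHC, UQCRB, CYC1 and COX6C). On either strand, the ETS motif CCGGAAG was found for 8 of 24 members (33.3%) and for 12.2% of all 27305 genes with a window. The YY1 motif AAGATGGCG was found for 5 of 24 (20.8%) and 2.14% of all genes, the palindromic NRF1 motif for 1 of 24 (4.17%) and 1.52%, and the ESRRA motif TCAAGGTCA for 1 of 24 (4.17%) and 0.432%. A match says only that these letters are in the window. The windows of COX5B, NDUFA9 and SDHB are shown because COX5B fell and the other 2 genes rose in HepG2S3, as described further on. Capitals mark the matched letters, and no match overlaps another in these windows.
COX5B, chr2:97645812-97646111, plus strand, 2 ETS matches: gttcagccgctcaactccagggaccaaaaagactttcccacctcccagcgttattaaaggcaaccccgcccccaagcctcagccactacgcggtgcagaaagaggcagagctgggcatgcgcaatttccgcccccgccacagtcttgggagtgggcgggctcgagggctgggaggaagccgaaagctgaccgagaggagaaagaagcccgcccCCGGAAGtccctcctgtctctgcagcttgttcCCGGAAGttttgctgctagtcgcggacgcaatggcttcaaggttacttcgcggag
NDUFA9, chr12:4648864-4649163, plus strand, 1 YY1 match: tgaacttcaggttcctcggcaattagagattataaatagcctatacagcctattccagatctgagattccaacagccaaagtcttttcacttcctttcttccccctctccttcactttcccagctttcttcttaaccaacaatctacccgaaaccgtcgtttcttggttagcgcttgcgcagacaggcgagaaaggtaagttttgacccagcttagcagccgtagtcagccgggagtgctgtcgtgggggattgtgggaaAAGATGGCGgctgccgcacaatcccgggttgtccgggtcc
SDHB, chr1:17053983-17054282, minus strand, 1 ETS and 1 YY1 match: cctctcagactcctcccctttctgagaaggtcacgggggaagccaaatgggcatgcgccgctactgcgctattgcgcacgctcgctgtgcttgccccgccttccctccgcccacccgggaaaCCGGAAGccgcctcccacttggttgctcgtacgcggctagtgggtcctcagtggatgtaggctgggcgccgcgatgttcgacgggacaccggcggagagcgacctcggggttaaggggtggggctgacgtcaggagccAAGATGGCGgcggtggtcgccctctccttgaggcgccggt
The SDHD promoter was the one that held the NRF1 and the ESRRA motif, beside an ETS motif. Neither RefSeq window of PPARGC1A held any of the 4 motifs.

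Depth in the 20 libraries used was 9851195 to 36639473 gene counts (median 19631369). Replicate 1 of HCC4006P1 was left out because it has no mitochondrial counts. With chromosomes ordered by name its counts stop at GARS1 on chromosome 7, and all 1679 genes beyond it that reached 50 counts in replicate 2 are at 0. This left 2 libraries for HepG2, HepG2S3 and HCC4006ER and 1 for each of 14 cell lines, and nothing in the labels says whether replicate libraries came from separate cultures. The libraries labelled as sorafenib-resistant stood apart from HepG2 in liver identity. The summed level of 5 liver markers (ALB, AFP, APOA1, TTR and HNF4A) was 16655 CPM in HepG2, 0.812 CPM in HepG2S1 and 17.6 CPM in HepG2S3, while KRT7 was at 1.03, 2733 and 2912 CPM. HCC4006P1 and HCC4006P2, by name the same line, also differed, with NKX2-1 at 0 and 113 CPM and NAPSA at 0.0513 and 143 CPM. Of the other lung markers, SFTPB was at 0.154 and 10.1 CPM and SFTA3 at 0 and 30.1 CPM, while EGFR was close, at 1036 and 962 CPM. All 5 liver markers fell in HepG2S3. For the other marker lists the counts stand against 31.4% of all genes rising and 32.1% falling in HepG2S3, and 15.1% and 16.3% in HCC4006ER. Of 4 pancreas duct markers tested, 2 rose and 2 fell in HepG2S3, and 0 rose and 3 fell in HCC4006ER, of the lung markers 1 of 1 rose in HepG2S3 and 1 of 4 fell in HCC4006ER, and of the ovary markers 1 of 3 rose and 2 fell in HepG2S3 and 1 of 4 rose in HCC4006ER. In the 3 pancreatic cell lines PDX1, a marker of pancreatic cells, was at most 0.201 CPM and ONECUT1 at most 0.0805 CPM. There KRT7 was at 876 to 2543 CPM, KRT19 at 28.6 to 677 CPM and MUC1 at 1.37 to 3.73 CPM. In the 5 ovarian ones PAX8 was at 357 to 664 CPM and SOX17 at 43.3 to 83.0 CPM. WT1 was at most 0.49 CPM in them and EMX2 at most 0.0364 CPM. MUC16 was at 30.1 to 103 CPM in UWB1.289, U10 and U100, and at 0.473 and 0.554 CPM in IGROV-1 and IGROV-1/CDDP. Of the leukocyte and endothelial markers, 1 of 1 tested rose in HepG2S3 and 0 of 3 were called in HCC4006ER. Whether these differences in identity have a part in the results that follow was not tested.

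Mitochondrially encoded mRNAs made up 2.16 to 6.73% of all counts, and the 30 nuclear subunits 0.216 to 0.612%. Levels are given as CPM, a library's counts scaled to a common total on genes, and the sum over the 13 mitochondrial mRNAs reached from 21690 CPM in HCC4006ER over a median of 44978 CPM to 67324 CPM in IGROV-1, a 3.10-fold range over 17 cell lines. Among the 7 parental cell lines it reached from 40285 to 67324 CPM, and only HCC4006ER, HCC4006GR and HepG2S3 lay below that range. The sum over the 30 nuclear subunits reached from 2155 CPM in HCC4006GR over a median of 3750 CPM to 6018 CPM in HepG2S3, and HepG2S1 with 5493 CPM and HepG2S3 lay above the parental range of 2817 to 4304 CPM. Across the cell lines the sums were related by Spearman's rho 0.113 and Pearson's r 0.0053 (n = 17, of which several share a parent, and both sums share the library total). Over the 7 parental cell lines alone rho was 0.536 and r 0.530. The number of mitochondrial per nuclear counts was lowest in HepG2S3 (5.15), HCC4006ER (6.60) and HepG2S1 (7.69), and the other 14 cell lines lay between 10.3 and 18.5. In bulk RNA, fewer mitochondria per cell and fewer transcripts per mitochondrion cannot be told apart, and a share of counts also moves with every other gene.

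**Figure D1:**
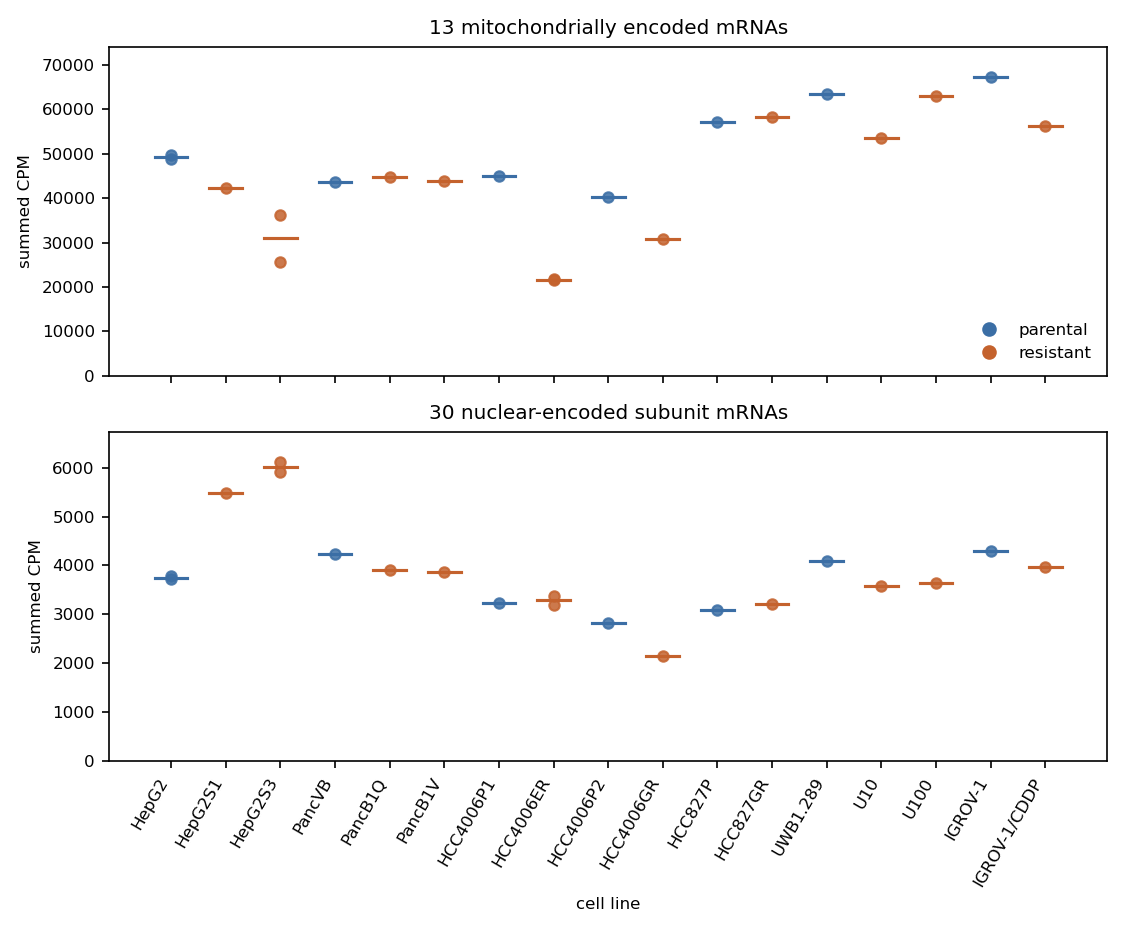
Summed CPM of the 13 mitochondrially encoded mRNAs (top) and of the 30 nuclear subunits (bottom) in each of 17 cell lines. Points are libraries, lines are the means of a cell line, blue is parental and orange resistant; HCC4006ER, HCC4006GR and HepG2S3 are low in the upper panel, and HepG2S1 and HepG2S3 are high in the lower one.

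The 13 mitochondrial mRNAs were unequal in level and in how far they varied. Per kilobase of transcript, the medians over 17 cell lines were highest for MT-CO2, a catalytic subunit of complex IV, with 6508 CPM per kilobase, and for the complex I subunit MT-ND4 with 6347 CPM per kilobase. The lowest were MT-ND6 with 1816 and MT-ND3 with 1902 CPM per kilobase, both subunits of complex I. Across cell lines MT-ND1 varied most, from 1156 CPM in HCC4006ER over a median of 4089 CPM to 8890 CPM in IGROV-1, a 7.69-fold range, and MT-ATP6 least, with a 2.81-fold range from 1458 to 4091 CPM. As a share of the mitochondrial mRNA pool, MT-ND4 took from 15.2% in HCC827P to 28.0% in UWB1.289, MT-CO1 from 12.6% in U10 to 24.2% in HepG2, and MT-ND1 from 3.59% in HCC4006P1 to 15.6% in IGROV-1/CDDP. MT-CYB, the mitochondrial subunit of complex III, took 3.87% in UWB1.289 and 10.8% in HCC4006ER.

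**Figure D2:**
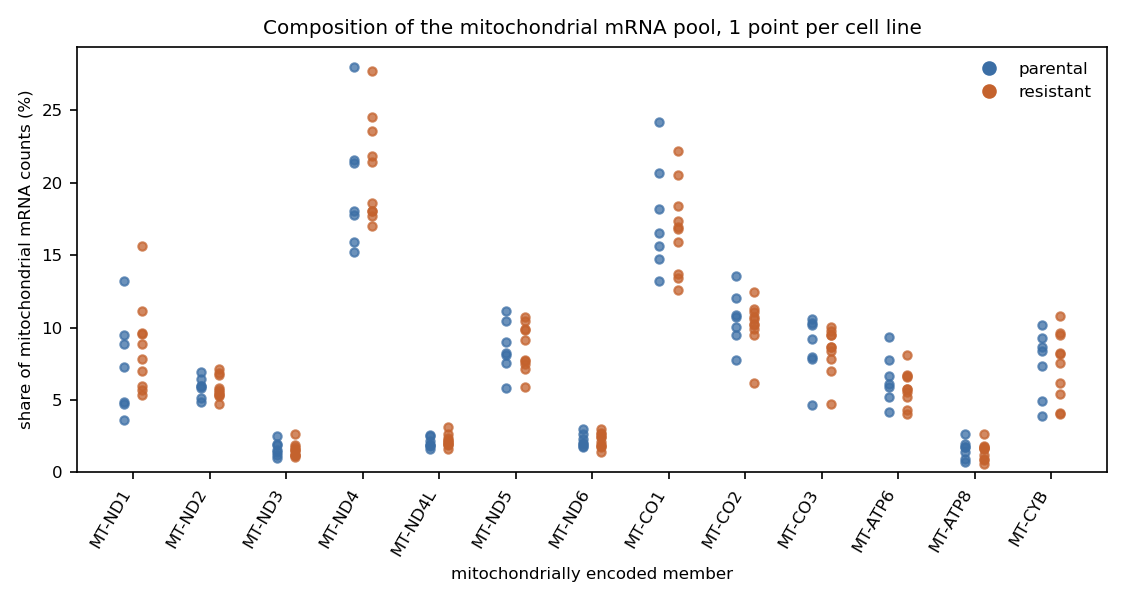
Share of each of the 13 mitochondrially encoded members in the mitochondrial mRNA counts (y axis, percent), with 1 point per cell line, blue for 7 parental and orange for 10 resistant cell lines. MT-ND4 and MT-CO1 take the largest shares, and the spread of MT-ND1 from 3.59 to 15.6% is wide for its level.

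Among the nuclear subunits, the catalytic ATP synthase subunit gene ATP5F1B had the highest level per kilobase (median 456 CPM per kilobase), followed by COX4I1 of complex IV with 260 and the complex I accessory subunit NDUFA1 with 148. These ranks rest on 1 annotated transcript length per gene, 421 bases for NDUFA1 and 5761 for ATP5F1A. By CPM alone ATP5F1A had a median of 397 and NDUFA1 of 62.4. NDUFS3, a core subunit of complex I, had the lowest level, with a median of 2.24 CPM or 2.50 CPM per kilobase. In the GENCODE annotation 18.1% of its exonic bases also lie in exons of other genes, PTPMT1 and CELF1 among them, and this share was 51.4% for NDUFS7 and 48.5% for NDUFB8; counts of overlapping genes are uncertain, and the part of overlap in these levels was not tested. The widest ranges over cell lines were those of CYC1 (cytochrome c1), 6.42-fold from 48.2 CPM in HCC4006GR over a median of 114 to 309 CPM in UWB1.289, COX6C of complex IV, 6.17-fold from 26.9 over 72.9 to 166 CPM, and ATP5F1A of the ATP synthase, 5.93-fold from 163 over 397 to 969 CPM. HCC4006GR had the lowest level of all 3 genes.

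HepG2S3 was compared with HepG2 over 2 libraries each to ask which subunits changed with sorafenib resistance. The mitochondrial and nuclear parts of the chain moved apart. With edgeR's quasi-likelihood test and a Benjamini-Hochberg adjusted p under 0.05, 11 of 13 mitochondrial mRNAs fell (84.6%; of all 16929 genes tested, 32.1% fell) and 0 rose, while 14 of 30 nuclear subunits rose (46.7%; of all genes, 31.4% rose) and 6 fell. All 13 mitochondrial log2 fold changes were below 0, with a median of -1.11, against a median of -0.01 over all genes tested and 0.39 over the nuclear subunits. The summed mitochondrial mRNA was 48736 and 49713 CPM in HepG2 and 36236 and 25744 CPM in HepG2S3, and the groups did not overlap, although the HepG2S3 libraries lay far apart.

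MT-ND3 fell most. It had 914 and 928 CPM in HepG2 and 432 and 303 CPM in HepG2S3, with no overlap, and a log2 fold change of -1.64 ± 0.21 (SE, adjusted p = 0.0017 by edgeR). MT-ND5 and MT-ND6, both of complex I, followed with -1.43 ± 0.26 and -1.44 ± 0.24 (adjusted p = 0.00572 and 0.00384, edgeR). MT-CYB had 2376 and 2477 CPM in HepG2 against 1435 and 1096 CPM in HepG2S3 (log2 fold change -1.25 ± 0.20, adjusted p = 0.00339, edgeR). The 3 mitochondrial subunits of complex IV fell by similar amounts, MT-CO1 by 1.1, MT-CO3 by 1.06 and MT-CO2 by 0.94 on the log2 scale. Both ATP synthase subunits also fell, MT-ATP6 by 1.16 and MT-ATP8 by 1.12, as did MT-ND2 by 1.11 and MT-ND1 by 0.72. MT-ND4 and MT-ND4L did not pass the test, with log2 fold changes of -0.57 ± 0.27 and -0.49 ± 0.21 (adjusted p = 0.118 and 0.0892, edgeR). Their libraries overlapped, with MT-ND4 at 9158 and 8334 CPM in HepG2 and 8761 and 5916 CPM in HepG2S3. Both were called lower in the joint fit of 7 libraries and without either HepG2 library. Without HepG2S3 replicate 2, the library with the lower mitochondrial share, 6 of 13 mitochondrial mRNAs were called lower.

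In HepG2S3 all 3 nuclear ATP synthase members rose, ATP5F1B from 696 and 646 CPM to 1513 and 1564 CPM (log2 fold change 0.88 ± 0.14, adjusted p = 0.00378, edgeR), ATP5PO by 0.84 and ATP5F1A by 0.53 on the log2 scale. Of the 4 genes of complex II, succinate dehydrogenase, the flavoprotein gene SDHA rose from 133 and 114 CPM to 275 and 258 CPM (0.80 ± 0.14, adjusted p = 0.00528, edgeR) and the iron-sulphur subunit gene SDHB from 62.1 and 52.5 to 112 and 115 CPM (0.67 ± 0.14, adjusted p = 0.0103, edgeR). The membrane anchor genes SDHC and SDHD did not pass the test, with log2 fold changes of 0.18 and 0.24. Without HepG2S3 replicate 1 the calls of SDHA, SDHB and ATP5F1A were lost, without replicate 2 those of SDHB and ATP5F1A, and with the replicate block that of ATP5F1A. Without either HepG2S3 library 7 of 30 nuclear subunits were called higher.

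Complexes I, III and IV were mixed. Counts per complex, here and above, stand against 31.4% of all genes rising and 32.1% falling in HepG2S3. Of 13 nuclear complex I genes (NDUFA4, today also assigned to complex IV, among them), 8 rose and 2 fell. NDUFB10, an accessory subunit, rose from 38.3 and 35.4 CPM to 93.9 and 98.7 CPM (1.07 ± 0.13), and the accessory subunit NDUFA9 from 47.6 and 46.3 to 115 and 127 CPM (1.05 ± 0.13, adjusted p = 0.0014 and 0.00139, edgeR). NDUFV2, a core subunit of complex I, fell from 152 and 153 CPM to 108 and 115 CPM (-0.77 ± 0.12, adjusted p = 0.00335, edgeR), and NDUFS1 fell by 0.68 on the log2 scale. COX7B, an accessory subunit of complex IV, had the largest rise among the 30 nuclear members, from 48.0 and 69.6 CPM to 214 and 222 CPM (1.57 ± 0.20, adjusted p = 0.00169, edgeR). In the same complex COX6C had 59.7 and 86.2 CPM against 52.2 and 53.1 CPM, a log2 fold change of -0.78 ± 0.20, and COX5B 130 and 175 against 111 and 115 CPM, a log2 fold change of -0.75 ± 0.17 (adjusted p = 0.0187 and 0.0135, edgeR). Of 5 nuclear complex III genes 0 rose and 2 fell, UQCRB by 0.64 and UQCRC2 by 0.49 on the log2 scale. That is too few genes to set apart from the shares of all genes. All 6 nuclear falls lost their call when either HepG2S3 library was left out.

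Scaling matters for the size of these values. On CPM without TMM scaling, the median gene with at least 1 CPM was 0.28 higher in HepG2S3 on the log2(CPM + 1) scale, and the medians became -0.79 for the mitochondrial and 0.70 for the nuclear members, with 0 of 13 and 24 of 30 above 0. On that scale 10 of 13 mitochondrial members were past 1.5-fold lower (24% of 13877 genes) and 18 of 30 nuclear subunits past 1.5-fold higher (39.2%). Of the promoters described above, those with a YY1 motif belonged to 4 genes that rose, 0 that fell and 1 that was not called in HepG2S3, and those with an ETS motif to 2 that rose, 2 that fell and 4 that were not called, where 31.4% of all genes rose and 32.1% fell. With a YY1 motif, NDUFB8, NDUFS7 and SDHB lost their call in HepG2S3 when either HepG2S3 library was left out, and NDUFA9 kept it. In HCC4006ER 0 of the 5 genes with a YY1 motif and 0 of the 8 with an ETS motif were called. Of all genes, 15.1% rose and 16.3% fell there, and so few genes cannot be told apart from these shares.

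HCC4006ER was compared with HCC4006P1 to ask the same for erlotinib resistance. Here the mitochondrial mRNAs fell without a matching rise of the nuclear subunits. As HCC4006P1 had 1 library left, the test drew on 7 libraries of 4 cell lines and took the lone library to vary like the others. All 13 mitochondrial mRNAs fell (of 19770 genes tested, 16.3% fell), and 2 of 30 nuclear subunits rose (of all genes, 15.1% rose) and 3 fell. The summed mitochondrial mRNA was 44978 CPM in HCC4006P1 and 21637 and 21743 CPM in HCC4006ER. The median log2 fold change was -1.18 for the mitochondrial members, -0.16 for the nuclear subunits and 0.04 over all genes.

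MT-CO2 fell most, from 6104 CPM in HCC4006P1 to 2345 and 2317 CPM in HCC4006ER (-1.58 ± 0.16, adjusted p = 0.000567, edgeR). MT-ND4 followed, with 9624 CPM against 3822 and 4006 CPM (-1.49 ± 0.23, adjusted p = 0.00322, edgeR), then MT-ATP6 with -1.45, MT-ND4L with -1.42, MT-ATP8 with -1.27 and MT-CO3 with -1.20. The remaining mitochondrial members lay between -1.18 for MT-ND3 and -0.67 for MT-ND1, with MT-CO1 at -1.14, MT-ND2 and MT-ND6 at -1.07, MT-ND5 at -0.96 and MT-CYB at -0.93. When either HCC4006ER library was left out, 7 of 13 were called lower.

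UQCRC2, a core subunit of complex III, was the nuclear member with the largest fall, from 170 CPM to 111 and 114 CPM (-0.78 ± 0.12, adjusted p = 0.00355, edgeR). COX5A of complex IV fell from 158 to 101 and 115 CPM (-0.74 ± 0.14) and CYC1 from 97.7 to 68.8 and 74.4 CPM (-0.64 ± 0.16; adjusted p = 0.00767 and 0.0234, edgeR). ATP5PO, which links the catalytic head of the ATP synthase to its stalk, rose from 42.6 to 85.3 and 97.1 CPM (0.91 ± 0.17, adjusted p = 0.00709, edgeR), and UQCRB from 79.5 to 130 and 127 CPM (0.50 ± 0.16, adjusted p = 0.0487, edgeR). The UQCRB call was lost in 6 of 10 alternatives. The CYC1 call was lost in 4 of 10, without either HepG2S3 and without either HCC4006ER library. The COX5A call was lost without HCC4006ER replicate 1 and the ATP5PO call without HCC4006ER replicate 2. The 4 SDH genes lay between -0.44 for SDHB and -0.14 for SDHC and were not called, nor were any of the 13 nuclear complex I genes. The number of nuclear calls depends on the estimate of spread. It was larger in a fit of the 3 HCC4006 libraries alone, and so was the number of calls among all genes.

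**Figure D3:**
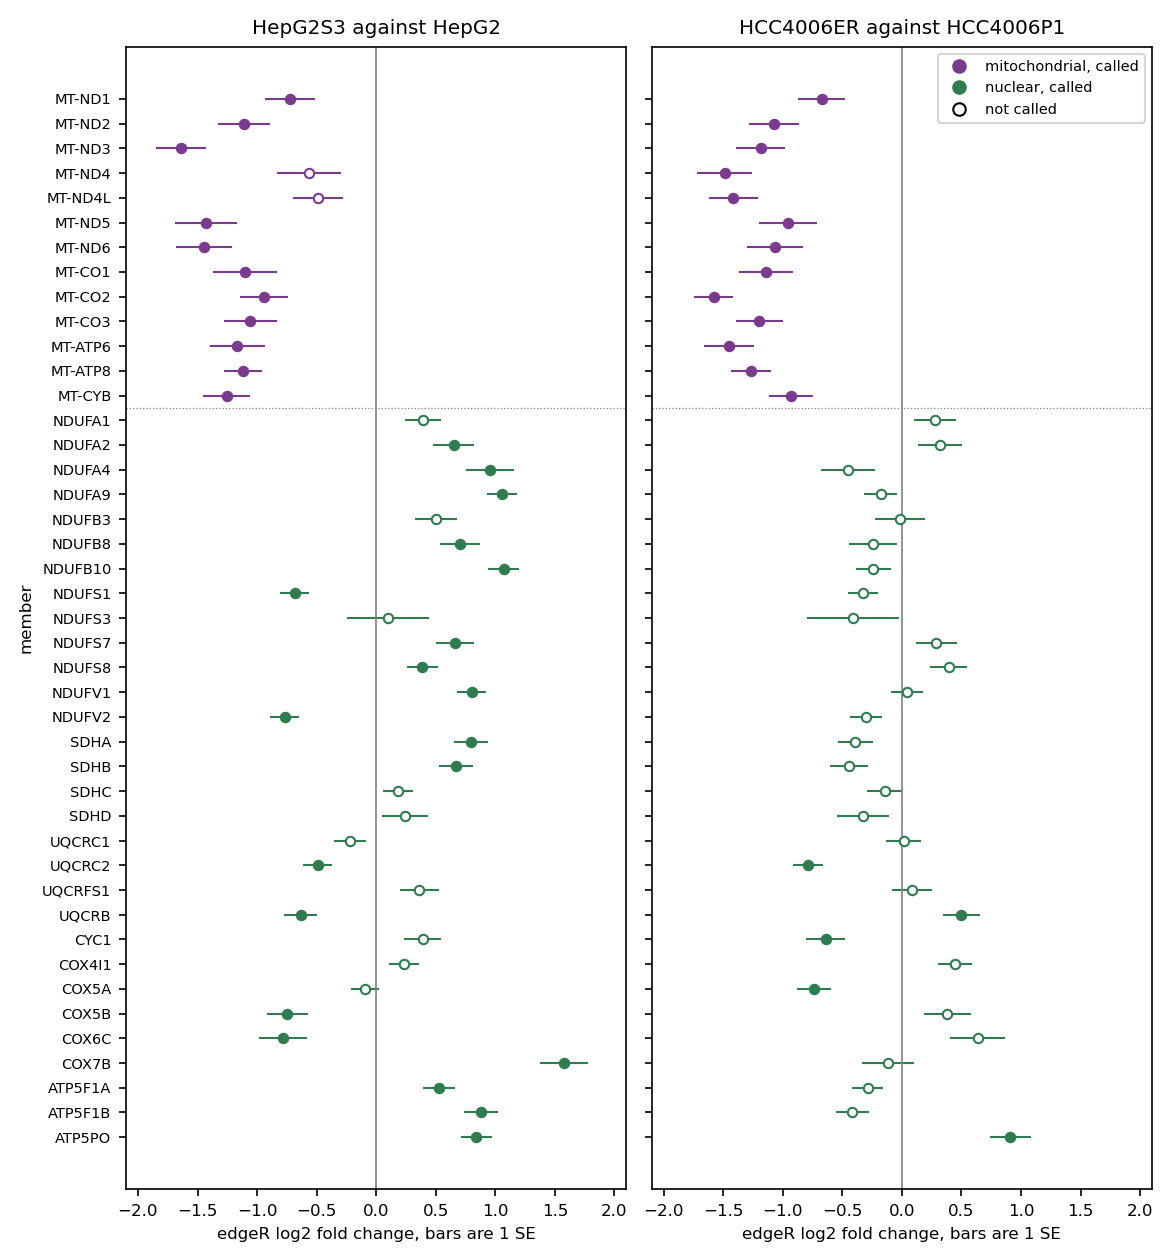
edgeR log2 fold changes (x axis) of the 43 subunit members in HepG2S3 against HepG2 and in HCC4006ER against HCC4006P1, with bars of 1 SE. Filled points passed an adjusted p under 0.05; the mitochondrial members (purple) lie left of 0 in both panels, and the nuclear members (green) lie mostly right of 0 in HepG2S3 and around 0 in HCC4006ER.

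The difference between these 2 changes was tested itself, as the HCC4006ER change minus the HepG2S3 change (median over all genes 0.13). Of 30 nuclear subunits, 12 differed with a lower value in HCC4006ER (40.0%; of 19770 genes, 24.2%) and 3 with a higher value (10.0%; of all genes, 24.3%). The largest differences were -1.68 ± 0.28 for COX7B, -1.39 ± 0.29 for NDUFA4 and -1.30 ± 0.19 for NDUFB10 on one side, and 1.43 ± 0.30 for COX6C, 1.15 ± 0.20 for UQCRB and 1.14 ± 0.26 for COX5B on the other (adjusted p from 0.00115 to 0.00905, edgeR). SDHA and SDHB differed by -1.18 and -1.10. Of the 13 mitochondrial mRNAs, MT-ND4L, MT-ND4 and MT-CO2 fell further in HCC4006ER, with differences of -0.92 ± 0.27, -0.91 ± 0.31 and -0.63 ± 0.22 (adjusted p = 0.0276, 0.0431 and 0.0488, edgeR), and these 3 calls were lost without either HCC4006ER library or without HepG2S3 replicate 1. The other 10 mitochondrial differences lay between -0.27 and 0.49 and were not called, which does not show that both cell lines changed alike.

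The genes around the chain were counted in the same tests, in which 31.4% of all genes rose and 32.1% fell in HepG2S3, and 15.1% rose and 16.3% fell in HCC4006ER. Of the other nuclear subunits, 27 of 46 (58.7%) rose and 3 (6.52%) fell in HepG2S3. The c-ring genes ATP5MC2 (1.80) and ATP5MC1 (1.71) rose most, and NDUFB9 (-1.05) and NDUFA10 (-0.68) of complex I fell most. In HCC4006ER 3 of 48 (6.25%) rose and 7 (14.6%) fell, with NDUFA13 at 1.80, ATP5PF at 1.68, NDUFAB1 at -1.05 and COX6B2 at -4.43. Of 30 assembly factors, 13 (43.3%) rose and 5 (16.7%) fell in HepG2S3, with ACAD9 at 1.95, COX15, which makes heme A, at 1.38, NDUFAF5 at -1.53 and TMEM70 at -1.31. In HCC4006ER 1 of 30 (3.33%) rose, NDUFAF6 with 0.69, and 5 (16.7%) fell, a share close to that of all genes, with ATPAF2 at -1.26 and NDUFAF1 at -1.15. Of 17 genes for transcription, processing and copying of mitochondrial DNA, 2 (11.8%) rose and 7 (41.2%) fell in HepG2S3, and 1 (5.88%) rose and 7 (41.2%) fell in HCC4006ER. TFB1M, which methylates mitochondrial ribosomal RNA, had the largest fall in HepG2S3 (-1.75 ± 0.18, adjusted p = 0.000808, edgeR), followed by TOP1MT (-1.04), and POLG, the mitochondrial DNA polymerase, in HCC4006ER (-1.08 ± 0.21, adjusted p = 0.00807, edgeR). SUPV3L1, an RNA helicase of mitochondria, rose by 0.91 in HepG2S3 and MTERF1 by 0.78 in HCC4006ER. SSBP1, the single-stranded DNA binding protein of mitochondria, rose by 0.94 in HepG2S3 and fell by 1.03 on the log2 scale in HCC4006ER, a difference of -1.96 ± 0.18 (adjusted p = 0.000148, edgeR). Of 73 mitochondrial ribosomal protein genes, 19 (26%) rose and 17 (23.3%) fell in HepG2S3, both below the shares of all genes, with MRPL24 at 2.30, MRPS34 at 1.58, MRPL52 at -2.29 and MRPL15 at -1.60. In HCC4006ER 4 (5.48%) rose and 27 (37.0%) fell, with MRPL41 at 0.76, MRPL36 at 0.74, MRPS17 at -1.31 and MRPL1 at -1.24. The mitochondrial ribosomal RNA MT-RNR1 fell in both, by 1.39 and 1.36 on the log2 scale, and MT-RNR2 was not called in either. Of 7 biogenesis regulators, 2 (28.6%) rose and 1 (14.3%) fell in HepG2S3, PPARGC1B with 0.48, GABPA with 0.47 and ESRRA with -0.38. In HCC4006ER 1 (14.3%) rose and 3 (42.9%) fell, with GABPA at 1.36, its partner GABPB1 at -1.07 and YY1 at -0.69.

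The other 8 pairs had no replicated test and are described on the log2(CPM + 1) scale, with a 1.5-fold change in place of a call. HepG2S1, which shares the HepG2 libraries with HepG2S3, had 17 of 30 nuclear subunits past 1.5-fold higher (of 13908 genes, 37.6%) and 2 lower (25.8% of all genes), led by COX7B with 1.72 and NDUFB10 with 1.58. Its mitochondrial mRNAs were split: 2 of 13 were past 1.5-fold higher and 4 lower. MT-ND1 was at 4030 CPM in HepG2S1 and at 2434 and 2213 CPM in HepG2 (0.79), and MT-ATP8 and MT-ND4L were higher by 0.65 and 0.54, whereas MT-ND3 was lower with -1.01, MT-CO1 with -0.83, MT-CO3 with -0.82, MT-ATP6 with -0.68 and MT-CO2 with -0.46. MT-CO1 was at 6721 CPM in HepG2S1 against 11306 and 12510 CPM in HepG2.

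U10 showed a split of another kind within the mitochondrial genome. MT-CO1 was at 6762 CPM in U10 and 13113 CPM in UWB1.289 (-0.96), and MT-ND4L and MT-ND4 were lower with -0.66 and -0.60, past 1.5-fold like 14.4% of 14392 genes. In the same library MT-CO3 (0.51), MT-CYB (0.43), MT-ATP6 (0.43) and MT-ND1 (0.38) were higher. U100, selected from the same parent, had all 13 between -0.28 and 0.26, so that 0 of 13 were past 1.5-fold (7.29% of all genes were lower by that much). Of the nuclear subunits of U10, 1 of 30 was past 1.5-fold higher (14.8% of all genes) and 5 lower, with UQCRC2 higher by 0.99 and NDUFS1 lower with -1.35. U100 had COX5A lower with -1.25, from 73.2 to 30.3 CPM. NDUFA9 (-0.68), NDUFA2 (-0.64), CYC1 (-0.63) and SDHB (-0.59) were also past 1.5-fold lower in U100, where 7.29% of all genes were. The largest nuclear rise in U100 was 0.52 for SDHD, which is not past 1.5-fold.

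In HCC4006GR 12 of 13 mitochondrial mRNAs were below 0 (median -0.37, lowest MT-CYB with -0.82), as were 56.2% of all genes, and 2 of 13 were past 1.5-fold lower (of 14821 genes, 16.8%). Of its nuclear subunits 26 of 30 were below 0, with a median of -0.35 against -0.08 over all genes, and 4 were past 1.5-fold lower, led by UQCRC2 with -1.09. The shares past 1.5-fold were thus no larger than that of all genes. In IGROV-1/CDDP, with 1 library per cell line, the 13 mitochondrial mRNAs lay between -0.60 for MT-CO2 and -0.02 for MT-ND1. There 1 of 13 was past 1.5-fold lower (of 14090 genes, 17.1%). In HCC827GR, PancB1Q and PancB1V the mitochondrial medians were 0.00, 0.05 and 0.02, and 1, 0 and 0 of 13 were past 1.5-fold lower (17.4, 22.9 and 17.7% of all genes). That 1 was MT-ATP8 in HCC827GR, with 1119 CPM in the parent and 710 CPM in the resistant cell line (-0.66). PancB1Q and PancB1V, which share the PancVB library, had NDUFS7, a core subunit of complex I, lower with -1.71 and -1.16, from 35.5 to 10.2 and 15.4 CPM. The NDUFV2 level was higher in both, by 0.59 and 0.62. HCC827GR had 3 of 30 nuclear subunits past 1.5-fold higher (20.9% of all genes). SDHA was one of them with 0.71, was higher by 1.34 in HepG2S1 and by 1.11 in HepG2S3, and lay between -0.50 and -0.18 in the other 7 pairs.

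**Figure D4:**
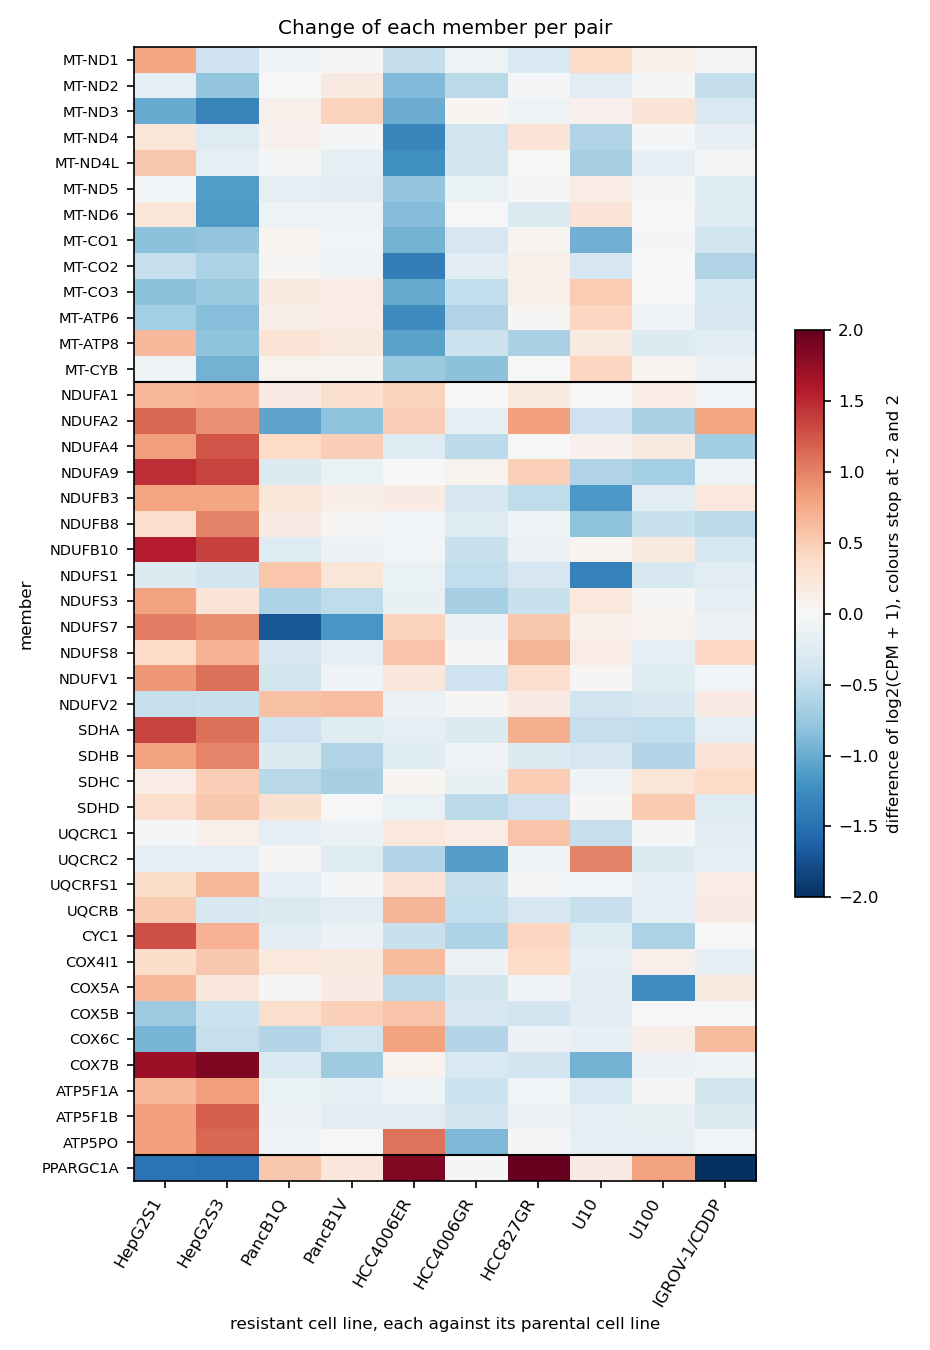
Difference of log2(CPM + 1) between each resistant cell line and its parental cell line (colour, stopped at -2 and 2) for the 44 members, with lines between the 13 mitochondrial members, the 30 nuclear subunits and PPARGC1A. The HepG2S3 and HCC4006ER columns are blue in all 13 mitochondrial rows, and the HepG2S1 and HepG2S3 columns are red in 24 of 30 nuclear rows.

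Over the 10 pairs the mean change was highest for NDUFA1 (0.26 ± 0.27, SD), NDUFS8 (0.21 ± 0.39) and COX4I1 (0.20 ± 0.29), and NDUFA1 was higher in 8 of 10 pairs. Of the nuclear subunits it was lowest for NDUFS1 (-0.27 ± 0.49), UQCRC2 (-0.18 ± 0.52) and COX6C (-0.16 ± 0.55), and NDUFS1 and UQCRC2 were lower in 8 of 10. Among the mitochondrial members MT-CO1 had the lowest mean (-0.42 ± 0.42, lower in 8 of 10) and MT-ND1 the highest (-0.01 ± 0.38). Some pairs share parental libraries, and the SDs were about as large as the means or larger. With profiles summed per parental cell line and the parent as a block, edgeR called 0 of 15847 genes and 0 of 44 members over 7 parental cell lines (722 genes at an unadjusted p under 0.05, and 79 higher and 18 lower by DESeq2 at an adjusted p under 0.05, of which 0 were members). All 13 mitochondrial log2 fold changes in that test were below 0, between -0.45 for MT-CO2 and -0.17 for MT-ND1, with the smallest unadjusted p of 0.0653 for MT-ATP8 (adjusted p = 0.984, edgeR). The nuclear subunits lay between -0.36 and 0.25.

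PPARGC1A varied more than any subunit, with counts from 0 to 5047 per library. It was at 184 CPM (95% Wilson interval 179 to 189, for counting error only) in IGROV-1 and at 7.00 CPM (6.04 to 8.11) in IGROV-1/CDDP, 26.2-fold lower. In HepG2 it was at 70.2 and 69.3 CPM, in HepG2S3 at 25.5 and 22.7 CPM (log2 fold change -1.85 ± 0.14, adjusted p = 0.000317, edgeR) and in HepG2S1 at 24.4 CPM. The change was the other way in 2 lung pairs. PPARGC1A had 0 counts in HCC827P and 371 in HCC827GR (23.9 CPM), at least 138-fold higher when 3 counts are taken as the floor of the HCC827P library. It had 0 counts in HCC4006P1 and 63 and 40 in HCC4006ER (3.19 and 2.05 CPM), at least 17-fold higher by the same floor (adjusted p = 0.000623, edgeR). Values were close in HCC4006P2 and HCC4006GR, with 2.72 and 2.65 CPM and overlapping intervals, and in UWB1.289 and U10, with 8.09 and 9.17 CPM, while U100 had 15.0 CPM (13 to 17.2). PancVB, PancB1Q and PancB1V were at or below 0.980 CPM.

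**Figure D5:**
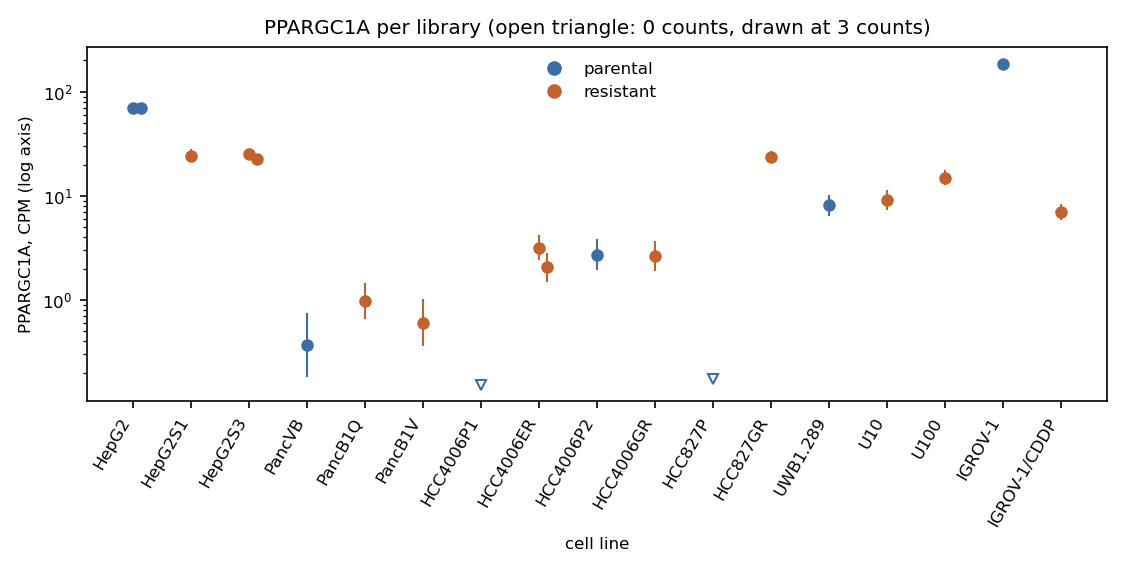
PPARGC1A level in CPM (log axis) in each library of 17 cell lines, with 95% Wilson intervals of the count, blue for parental and orange for resistant cell lines; an open triangle marks a library with 0 counts, drawn at its floor of 3 counts. IGROV-1 is highest with 184 CPM, against 7.00 CPM in its resistant cell line, and HCC827GR has 23.9 CPM where HCC827P has 0.

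The values of PPARGC1A and the subunits are set side by side here without a test. In HepG2S3 PPARGC1A and 11 of 13 mitochondrial mRNAs fell while 14 of 30 nuclear subunits rose, and in HCC4006ER PPARGC1A rose from 0 counts while all 13 mitochondrial mRNAs fell. In IGROV-1/CDDP, with the largest fold difference of PPARGC1A downward, the summed mitochondrial mRNA was 0.835 and the summed nuclear subunits 0.922 of the parental level. In HCC827GR, where PPARGC1A was at least 138-fold higher, the sums were 1.02 and 1.04 of the parental level, and slightly below it with TMM-scaled library sizes.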

How the data were processed

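RNA sequencing libraries of 7 parental and 10 resistant cell lines (21 libraries, 20 used) were deposited as read counts per Ensembl gene. Per the labels, the authors captured mRNA and made libraries with a stranded KAPA kit, and their processing notes name Bowtie, TopHat, SAMtools, HTSeq and hg19. Versions and the HTSeq strand setting are not given in the sources used here. The study's methods also name a QuantSeq 3' kit, without saying for which libraries. In those methods QuantSeq reads were mapped with Star, which the processing notes do not name. If both kits were mixed here, per-gene levels would differ by kit as well as by cell line.

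Closing HTSeq totals, which name no gene, were left out of all library sizes. Symbols came from GENCODE v44lift37 (45100 of 53515 identifiers matched). NDUFA7, SCO2, POLG2 and PECAM1 were not matched and are not analysed here. CPM used the total on genes, and differences per pair were taken on log2(CPM + 1) with replicate libraries averaged. Tests across all genes used edgeR 4.0.16 (limma 3.58.1, R 4.3.3) with TMM scaling, filterByExpr, quasi-likelihood tests and Benjamini-Hochberg adjustment at 0.05, on 4 libraries for HepG2S3, 7 for HCC4006ER and the interaction, and 14 summed profiles with parental cell line as block. DESeq2 1.42.0 was an alternative. The scripts were tested on simulated data. In single-library pairs, genes with a mean of at least 1 CPM were set against a 1.5-fold change, with no p. Intervals are 95% Wilson intervals and, like the floor of 3 counts, cover counting error only.

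Alternatives were other library totals, a pseudocount of 0.1 CPM, no filter, DESeq2, the replicate block, other sets of libraries in a fit, and leaving out each replicate or parental cell line. The members and lists were chosen with earlier results of these data known. All mitochondrial members, the SDH genes and PPARGC1A are named. Other nuclear members were named by the 3 largest rises and falls per test, the 3 highest and lowest means over pairs and the 3 widest ranges, and genes of pathway lists by up to 2 of the largest called changes in each direction. Other nuclear subunits in the text were chosen after their values were seen. Reads of overlapping genes or nuclear copies of mitochondrial DNA may be missing or misplaced. Letters A and B in the names were read as replicates 1 and 2. The sample titles differ from this reading, with repl1 for both HepG2 libraries and repl2 for both HepG2S3 libraries. Deviations from the group means correlated between same-lettered libraries with r = 0.0164 for HepG2 and HepG2S3 and 0.387 for HCC4006P1 and HCC4006ER. With 2 pairs each, the letters were not taken as pairing.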

Additional observations from a re-analysis of the deposited data

Results flagged for a closer look

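In 4 of 94 groups tested, 1 cell line stood far from the rest of its group, and chance gives about 1 in 20. MT-ND4 in UWB1.289 was at 17747 CPM, with the nearest of the 7 parental cell lines at 10725 CPM. Among the 10 resistant cell lines, NDUFA1 in HCC4006ER was at 104 CPM with the nearest at 71.9 CPM, NDUFS8 in HCC4006GR at 31.1 CPM with the nearest at 56.8 CPM, and NDUFV1 in HCC4006GR at 62.2 CPM with the nearest at 121 CPM.

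For 19 members the change in HCC4006ER differed from that in HepG2S3 by edgeR's test of the difference itself (adjusted p from 7.11e-05 to 0.0488). On the log2 scale, as HCC4006ER minus HepG2S3, the differences were -1.68 for COX7B, -1.39 for NDUFA4, -1.30 for NDUFB10, -1.29 for ATP5F1B, -1.22 for NDUFA9, -1.18 for SDHA, -1.10 for SDHB, -1.02 for CYC1, -0.93 for NDUFB8, -0.80 for ATP5F1A, -0.74 for NDUFV1 and -0.64 for COX5A. They were 1.43 for COX6C, 1.15 for UQCRB and 1.14 for COX5B. For the mitochondrial mRNAs they were -0.92 for MT-ND4L, -0.91 for MT-ND4 and -0.63 for MT-CO2. The fitted 10.90 for PPARGC1A rests on 0 counts in HCC4006P1 and is no measure of size. All 5 liver markers fell in HepG2S3, and 1 of them was called higher in the same contrast (20%, against 24.3% of all genes). Their part in these differences was not tested.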

How the results depend on the processing

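The falls of mitochondrial mRNAs in HepG2S3 and HCC4006ER numbered 11 to 13 and 13 under each alternative that kept all libraries. Leaving out 1 library gave 6 to 13 mitochondrial falls, 7 to 20 nuclear rises and 0 to 7 nuclear falls in HepG2S3, with 6 mitochondrial falls without HepG2S3 replicate 2, 7 nuclear rises without either HepG2S3 replicate and 20 without HepG2 replicate 2. In HCC4006ER it gave 7 to 13 mitochondrial falls (7 without either HCC4006ER replicate), 0 to 8 nuclear rises and 1 to 11 nuclear falls, and in the test of the difference 0 to 3 lower and 0 to 3 higher mitochondrial mRNAs and 3 to 5 higher and 9 to 16 lower nuclear subunits. HCC4006ER had 1 nuclear rise with no filter and 1 with TMM and totals without mitochondrial genes, 8 rises and 11 falls in the fit of HCC4006P1 and HCC4006ER alone, and 5 rises with HCC4006P1 replicate 1 kept. The number of calls among all genes also moved between these fits, and shares of all genes were not set beside these counts. The cause of these moves was not tested. With TMM-scaled library sizes the log2 change of the nuclear sum in PancB1Q was 0.12 and those of the mitochondrial and nuclear sums in HCC827GR were -0.032 and -0.0015, each of opposite sign to the value with plain totals. Of the values for single members, 1117 kept direction and side of the threshold, 90 passed it newly and 77 no longer passed it. With the sums included, 1180 values counted as kept, 29 moved and 3 changed sign. A sum counted as kept, whatever its direction, when it shifted by less than the spread of its library pairings or its counting error.

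With the replicate block, HepG2S3 had 11 mitochondrial falls, 13 nuclear rises (NDUFS8 and ATP5F1A lost, NDUFB3 gained) and 6 nuclear falls, and HCC4006ER, with HCC4006P1 replicate 1 kept, 7 nuclear rises and 4 nuclear falls. No mitochondrial member could be tested in that fit, since this library has no mitochondrial counts.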
